A study of Drosophila melanogaster with 3 samples.

Results

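The nuclear oxidative phosphorylation genes are the chromosomal genes for the protein complexes of the mitochondrial inner membrane that carry electrons to oxygen and make ATP. They were taken from the Ensembl annotation of the fly genome (release 6 assembly, dm6) as protein-coding genes on the X and the arms 2L, 2R, 3L, 3R and 4 whose symbol begins with ND-, SdhA to SdhD, UQCR-, COX4 to COX8 or ATPsyn. This gave 87 genes of 13945 protein-coding genes on these arms. There were 40 genes of complex I, 7 of complex II, 9 of complex III, 16 of complex IV and 15 of complex V. By symbol, 63 were primary copies and 24 were duplicates, that is, paralogs whose symbol ends in L or in L and a digit.

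Binding of Atf3 was measured by chromatin immunoprecipitation and sequencing (ChIP-seq) in whole Drosophila melanogaster embryos aged 0 to 24 h, with both sexes pooled. The flies were of the transgenic line A3-3-GFP, in which Atf3 carries a C-terminal green fluorescent protein, and chromatin was recovered with an antibody against that tag. The 3 biological replicates form 1 group, with no treatment and no second group, so that no conditions are compared. The labels do not say what promoter drives the fusion or whether untagged Atf3 was present, and whole embryos mix all cell types.

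Complex I takes electrons from NADH and complex II takes them from succinate, a step shared with the tricarboxylic acid (TCA) cycle. Complex III passes them to cytochrome c, complex IV passes them to oxygen, and complex V, the ATP synthase, uses the proton gradient that results. Most subunits are encoded in the nucleus, so genes on many chromosomes serve a common product, and the roles given here for single subunits are those of their mammalian counterparts. Atf3 is a basic leucine zipper factor, a class of proteins that bind DNA as pairs at short palindromes such as the cyclic AMP response element (CRE, TGACGTCA) and the AP-1 site. The nuclear respiratory gene (NRG) element is a palindrome that was described in fly genes of oxidative phosphorylation.

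The sequence under the peaks is shown first for 3 genes, as the summit of the peak with 100 bp on each side, from the release 6 genome and on the strand of the named gene. ND-ASHI has one of the highest signals, COX7B is a complex IV gene called in all 3 replicates, and ND-B17 has no other protein-coding start site near its peak. ND-ASHI lies at chrX:6679282-6679482 on the minus strand, COX7B at chr3L:17425247-17425447 on the plus strand and ND-B17 at chr2L:15751110-15751310 on the minus strand. No base is in capitals because none of the 8 motifs searched is in these windows.
ND-ASHI: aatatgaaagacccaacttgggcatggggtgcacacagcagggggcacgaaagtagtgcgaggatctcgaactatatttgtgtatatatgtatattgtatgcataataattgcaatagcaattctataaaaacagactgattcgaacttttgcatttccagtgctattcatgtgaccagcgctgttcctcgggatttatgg
COX7B: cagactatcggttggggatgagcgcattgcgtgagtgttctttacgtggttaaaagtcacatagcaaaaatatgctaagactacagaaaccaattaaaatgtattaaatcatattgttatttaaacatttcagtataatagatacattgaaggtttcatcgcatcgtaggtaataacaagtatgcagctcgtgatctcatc
ND-B17: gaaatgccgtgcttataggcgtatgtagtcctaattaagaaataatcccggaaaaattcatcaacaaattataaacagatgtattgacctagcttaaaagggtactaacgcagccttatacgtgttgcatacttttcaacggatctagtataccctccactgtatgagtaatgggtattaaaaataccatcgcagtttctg

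The NRG elements of the bound genes are shown because 8 of the 12 bound genes hold one. Each lies downstream of the start site and outside every interval of the IDR and pooled lists. The search ran from 250 bp before to 1000 bp after the canonical start site, a window chosen after other values were seen. In it 28 of all 87 genes, 27 of the 63 primary copies and 69 of all 1974 bound protein-coding genes hold one. A link between element and binding was not tested. The 10 bases of the element are in capitals, with 10 bases on each side, on the strand of the gene. ATPsynC has 2 sites, and the shown ones lie at chr3R:31219131-31219160 on the minus strand for ATPsynC, chr3R:14327257-14327286 on the plus strand for ATPsynE, chr3R:11820315-11820344 on the plus strand for COX5A, chrX:19744025-19744054 on the minus strand for COX6B, chr3L:17425683-17425712 on the plus strand for COX7B, chrX:17632522-17632551 on the plus strand for ND-24, chr2L:6062499-6062528 on the minus strand for ND-51 and chr2L:15750683-15750712 on the minus strand for ND-B17.
ATPsynC: ttttccgcatGTTACGTAACttttctgagg
ATPsynE: cggtcggacaATTACATAACttgaagaaga
COX5A: ttccctgttgGTTACGTAACacccaggtta
COX6B: aaaagtacaaGTTACATAACtcgctgatgc
COX7B: aaccttaaaaATTACATAATgtggataagc
ND-24: tgttccccgaGTTATATAATtggcgacagg
ND-51: atgccatcaaATTATGTAATttttgcgcaa
ND-B17: tgtcgtgggtATTATGTAATcaagtttttg

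The core of the site for M1BP, a zinc finger protein of fly core promoters, was in a larger share of these promoters than any other motif searched. It is shown for 4 of the 5 bound genes that hold it within 250 bp before to 50 bp after the canonical start site, with the 9 core bases in capitals and 10 bases on each side, in the orientation of the motif. They lie at chr3R:31219778-31219806 on the minus strand for ATPsynC, chr3R:11819313-11819341 on the minus strand for COX5A, chr3L:17425476-17425504 on the plus strand for COX7B and chr2L:15751075-15751103 on the minus strand for ND-B17.
ATPsynC: ctactgttatGGTCACACTgcgcctattg
COX5A: atttaattgcGGTCACACTgcatcttcaa
COX7B: acaacacaacGGTCACACTgttcaacaca
ND-B17: ttaagagtgcGGTCACACTggcggcaaca

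A gene is called bound here when the summit of a peak in the authors' reproducible list lies within 500 bp of any of its transcription start sites. That list keeps peaks by the irreproducible discovery rate (IDR), which asks how repeatably a peak ranks across replicates, and it holds 2896 peaks, the same ones as the 2896 highest calls of the authors' pooled list of 27754. Each replicate also has a relaxed list of 30000 calls. Signal is the authors' value for each peak and is used only to rank peaks within a list. The read depth behind the lists is unknown here. The IDR list shared 2259 of its peaks with the 2896 highest calls of replicate 1, 2286 with those of replicate 2, 2297 with those of replicate 3 and 1535 with all 3.

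Atf3 was bound at 12 of the 87 genes, or 13.8% (95% Wilson interval 8.07 to 22.6%), beside 14.2% of all protein-coding genes. The bound genes were 7 of complex I, 3 of complex IV and 2 of complex V, with none of complex II or III. All 12 were primary copies. When 1 replicate was set aside and IDR peaks had to be shared with the top calls of both others, a stricter rule, 8 genes were bound without replicate 1 (9.20%, beside 10.2% of all genes), 7 without replicate 2 (8.05%, beside 8.94%) and 6 without replicate 3 (6.90%, beside 9.26%). The share over the whole set was near that of the genome, so it is no result about these genes, and the interval of each complex contains 14.2%. The intervals cover counting error only and take genes as independent, although neighbouring genes can share a peak.

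**Figure D1:**
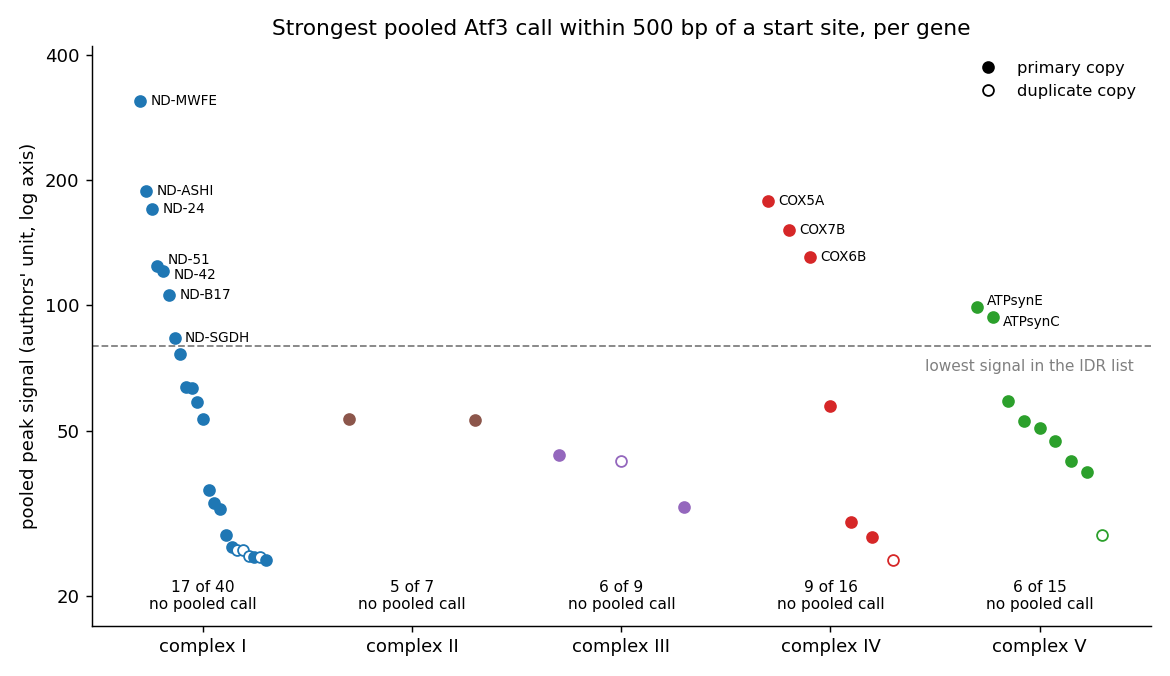
Signal of the strongest pooled call within 500 bp of a start site for each gene (vertical, the authors' unit, log axis), by complex (horizontal), with primary copies filled and duplicates open; the dashed line is the lowest signal in the IDR list, 79.8. The 12 named genes lie above the line, in complexes I, IV and V, and the genes with no pooled call are counted at the foot.

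In complex I, 7 of 40 genes were bound, or 17.5% (8.75 to 31.9%). The highest signal of all 87 genes was at ND-MWFE (FBgn0085468, arm 2R), a small accessory subunit of the membrane arm, with a pooled signal of 309 and a summit 175 bp upstream of the start site. Its strongest call ranked 422 in replicate 1, 132 in replicate 2 and 240 in replicate 3, and ranks given for other genes are likewise those of the strongest call within 500 bp. All 3 replicates thus put this peak near the top of their 30000 calls.

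ND-ASHI (FBgn0029888, arm X), another accessory subunit of the membrane arm, had a pooled signal of 188. Its ranks in replicates 1 to 3 were 836, 615 and 640, the narrowest spread among the 12 bound genes (SD 121, n = 3). ND-42 (FBgn0019957, arm 3R), an accessory subunit, had a signal of 121 and ranks of 2499, 1121 and 1234. These 3 accessory genes were each within the highest 2896 calls of every replicate. For ND-42 the calls of replicates 1 and 2 lay 125 and 203 bp from the summit in the IDR list. Its IDR peak was not among those shared with the top calls of all 3 replicates.

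The core subunits of complex I are those with counterparts in bacteria, and they hold the flavin and the iron-sulphur clusters of the arm that faces the matrix. The core subunits that were bound were ND-24 and ND-51. ND-24 (FBgn0030853, arm X) had a pooled signal of 170 and ranks of 1625, 399 and 1015, and ND-51 (FBgn0031771, arm 2L), which binds NADH and the flavin, had a signal of 124 and ranks of 974, 1470 and 2624. The 5 other core genes were not bound. ND-30 had a pooled signal of 63.8 and ND-23 one of 33.6, while ND-75 and ND-20 had a call in replicate 1 only and ND-49 had none in any list. Of the core genes 2 of 7 were bound (8.22 to 64.1%), beside 5 of the 27 accessory primary copies (8.18 to 36.7%). Both intervals contain the 14.2% of all genes, so that this is no result about the core genes.

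The remaining bound genes of complex I were weaker and less even. ND-B17 (FBgn0001989, arm 2L) had a signal of 106 and ranks of 3256, 1639 and 1834, and ND-SGDH (FBgn0011455, arm 3L) had the lowest signal of the 12, 83.6, with ranks of 5952, 1129 and 3016. Both are accessory subunits of the membrane arm. ND-SGDH was within the highest 2896 calls of replicate 2 only. Just below the IDR list stood ND-B18 with a pooled signal of 76.6 and a pooled rank of 3095, then ND-30 and then ND-B22 with 63.2.

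**Figure D2:**
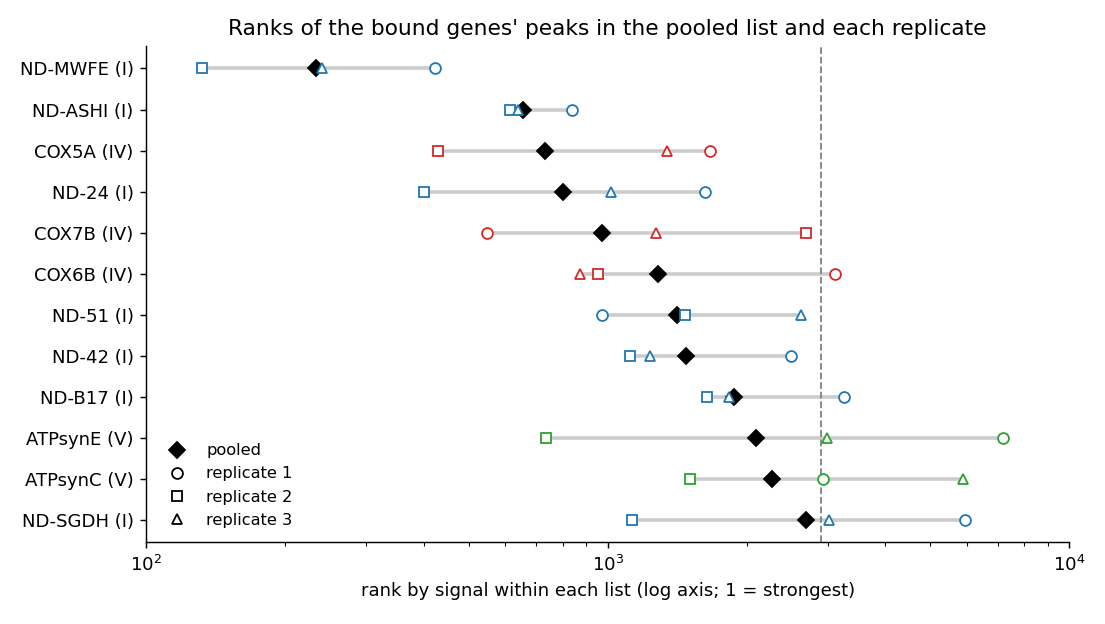
Rank by signal of the strongest call within 500 bp of a start site of each bound gene in the pooled list (black) and in each replicate (open, coloured by complex), on a log axis where 1 is the strongest peak; the dashed line is rank 2896. ND-MWFE and ND-ASHI keep high ranks in all 3 replicates, whereas the calls of ATPsynE span 737 to 7201, the last being a call 507 bp from the summit in the IDR list.

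In complex II, 0 of 7 genes were bound, and a count of 0 allows a share of up to 42.9%. SdhC, a membrane anchor, had a pooled signal of 53.2 and ranks of 8800, 2698 and 2707, so that replicates 2 and 3 placed it inside their highest 2896 calls and replicate 1 did not. SdhB, the iron-sulphur subunit, had a pooled signal of 53.1. The flavoprotein gene SdhA and the duplicates SdhAL, SdhBL and SdhCL had no call in any list.

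In complex III, 0 of 9 genes were bound, which allows a share of up to 33.3%, and none was within the highest 2896 calls of any replicate. The strongest pooled calls were at UQCR-Q with a signal of 43.8, at the duplicate UQCR-6.4L with 42.2 and at UQCR-11 with 32.7. Complex II thus had pooled calls at 2 of 7 genes (28.6%, 8.22 to 64.1%) and complex III at 3 of 9 (33.3%, 12.1 to 64.6%). Both intervals contain the 46.8% of all genes with a pooled call. The IDR list holds the highest pooled calls, so these calls lie below its lowest signal by construction.

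In complex IV, 3 of 16 genes were bound, or 18.8% (6.59 to 43.0%). COX5A (FBgn0019624, arm 3R), a subunit on the matrix side, had a pooled signal of 178 and ranks of 1663, 429 and 1342. COX7B (FBgn0040793, arm 3L), a small membrane subunit, had a signal of 152 and ranks of 549, 2690 and 1276. COX6B (FBgn0031066, arm X), on the side facing the intermembrane space, had a signal of 131 and ranks of 3116, 952 and 870. COX5A and COX7B were inside the highest 2896 calls of all replicates, and COX6B was inside them in replicates 2 and 3. The next complex IV genes were COX8 with a pooled signal of 57.4, COX5B with 30.2 and COX7A with 27.7, and COX4 had no call in any list. Of the 8 primary copies of complex IV, 3 were bound (37.5%, 13.7 to 69.4%), and none of the 8 duplicates.

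In complex V, 2 of 15 genes were bound, or 13.3% (3.74 to 37.9%). ATPsynE (FBgn0038224, arm 3R), a subunit of the membrane-embedded part, had a signal of 98.9 and ranks of 7201, 737 and 2991. The call ranked 7201 in replicate 1 lay 507 bp from the summit in the IDR list, and the call of that replicate nearest to the summit, 86 bp away, ranked 8239. ATPsynC (FBgn0039830, arm 3R), the subunit of the rotating ring, had a signal of 93.7 and ranks of 2937, 1507 and 5906. Each was inside the highest 2896 calls of replicate 2 only. Both therefore dropped out whichever replicate was set aside, because that rule asks for a top call in both others. The complex V genes next in signal were ATPsynF with 59.0, ATPsynO with 52.6 and ATPsynCF6 with 50.6. The catalytic subunit ATPsynbeta had a pooled signal of 39.8.

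**Figure D3:**
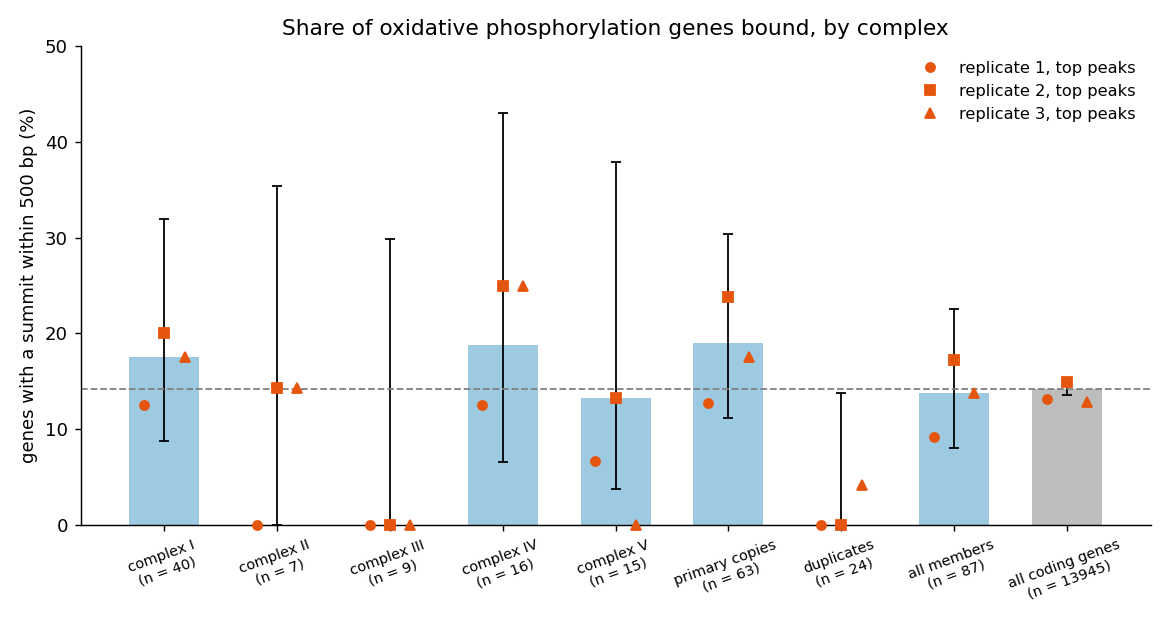
Percent of genes with a summit within 500 bp of a start site: bars for the IDR list with 95% Wilson intervals, symbols for the 2896 highest calls of each replicate, by complex and copy type. The dashed line is the share of all protein-coding genes, 14.2%; the intervals of the 5 complexes all reach it, and the duplicates have a bar at 0.

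The set was also counted in each replicate alone. With the 2896 highest calls of each replicate, 8 genes had a summit at the promoter in replicate 1 (9.20%, beside 13.2% of all genes), 15 in replicate 2 (17.2%, beside 14.9%) and 12 in replicate 3 (13.8%, beside 12.8%). The mean was 13.4% ± 4.04 (SD, n = 3), beside 13.6% ± 1.13 for all protein-coding genes. The set was below the genome in replicate 1 and above it in the other two. There were 7 genes inside the highest 2896 calls of every replicate (8.05%, beside 8.12% of all genes), a share near that of the genome. They were ND-MWFE, ND-ASHI, ND-24, ND-42, ND-51, COX5A and COX7B.

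In the pooled list, which includes weaker calls, about as large a share of these genes had a call as of others. In the pooled list 44 of 87 genes had a call within 500 bp (50.6%, beside 46.8% of all genes), with a median signal of 51.6 beside 50.5. When 1 replicate was set aside and pooled calls had to be shared with both others, the count was 19 genes without replicate 1 (21.8%, beside 24.3% of all genes), 21 without replicate 2 (24.1%, beside 27.1%) and 26 without replicate 3 (29.9%, beside 27.9%). Any call was present at 55 genes in replicate 1 (63.2%, beside 51.7%), at 46 in replicate 2 (52.9%, beside 43.1%) and at 30 in replicate 3 (34.5%, beside 40.8%). Replicate 3 thus differed in direction from the other two. At 17 of the 87 genes there was no call in any of the 5 lists. This is a smaller share than the 4338 of 13945 among all protein-coding genes.

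Primary copies and duplicates were counted apart. Of the 63 primary copies 12 were bound (19.0%, 11.2 to 30.4%), beside 14.2% of all genes. Of the 24 duplicates 0 were bound, which allows a share of up to 12.5%. Of the duplicates 21 had no protein-coding start site on the opposite strand within 500 bp. Among all genes without one 8.31% were bound, so that a count of 0 is no result about the duplicates. A pooled call was present at 37 primary copies (58.7%) and 7 duplicates (29.2%), beside 46.8% of all genes. By replicate, any call was present at 81.0%, 60.3% and 38.1% of the primary copies and at 16.7%, 33.3% and 25.0% of the duplicates. Over all genes these shares were 51.7%, 43.1% and 40.8%. The share was higher for primary copies than for duplicates in each replicate, but in replicate 3 it was below that of all genes. The exception among high calls was COX7AL2, a duplicate of complex IV, which ranked 2375 in replicate 3 but 23993 in replicate 1 and 10120 in replicate 2. Neither the expression of the duplicates nor the openness of their chromatin was measured here, and their part in this split was not tested.

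Most bound genes had a neighbour on the opposite strand. A protein-coding start site on the opposite strand within 500 bp was present for 10 of the 12 bound genes (83.3%), beside 57.6% of all bound protein-coding genes. The share was 84.2% for bound mitochondrial ribosomal protein genes, 62.5% for bound vacuolar ATPase genes and 47.5% for bound cytoplasmic ribosomal protein genes. It is thus not particular to these genes. By the start site of each gene nearest to the summit, the summit lay upstream of both genes at 7 of the 10 bound genes with such a neighbour. At ATPsynE, ND-SGDH and ND-42 it lay downstream of a start site of the pair. Among the 7, the summits of COX5A and ND-24 lay 200 and 139 bp downstream of the canonical start site. Among the 40 of 87 genes with such a neighbour (46.0%, beside 27.8% of all genes), 25.0% were bound, and among the 47 without one 4.26% were. Over all protein-coding genes the same shares were 29.3% and 8.31%. Of the duplicates 3 had such a neighbour, beside 37 of the primary copies. In ChIP-seq a peak near 2 start sites cannot be assigned to either gene.

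The neighbours that share these peaks include other mitochondrial genes. The summit at ND-ASHI lay 264 bp from its start site and 258 bp from that of Fum1, which encodes fumarase of the TCA cycle. The summit counted for ND-42 lay 284 bp upstream of it but 55 bp inside Cchl, which encodes the lyase that attaches haem to cytochrome c. Both peaks thus lie between or beside genes of the same organelle.

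For other genes the neighbour has another role. The summit at ND-MWFE was 46 bp from the start site of TppII, a peptidase gene, and so nearer to it than to ND-MWFE. At COX7B the summit was 130 bp from both COX7B and Sec3, a gene of the exocyst. COX6B shared its peak with CG18809, CG33932 and Rpp20, the last a gene of RNase P. The other shared peaks were those of COX5A with glo, ND-24 with corolla, ND-51 with CG13994, ATPsynE with Afti and ND-SGDH with RhoGAP68F, and in each the member had the nearer start site. ND-B17 and ATPsynC had no other protein-coding start site within 500 bp of the summit. When each peak was given only to its nearest start site, ND-ASHI, ND-42 and ND-MWFE dropped out and 9 genes remained bound.

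Summits lay close to the start sites. The median absolute distance from summit to nearest start site of the gene was 100 bp for the 12 bound genes, beside 134 bp for all bound protein-coding genes. In the 2896 highest calls of replicates 1, 2 and 3 it was 106, 107 and 150 bp (SD 25.0). In 10 of the 12 the summit was upstream of that nearest start site (83.3%, beside 87.1% of all bound genes). COX5A and ND-24 are among the 10, although their summits lay downstream of the canonical start site. In ATPsynE and ND-SGDH the summit was 39 and 37 bp downstream. The farthest summit counted was that of ND-42, and the nearest summit outside the window was 1455 bp from COX7AL2, then 1460 bp from ATPsynD. The median pooled signal at the bound genes was 127, beside 131 for all bound genes.

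Motifs were counted on both strands in the promoter, 250 bp before to 50 bp after the canonical start site, of all 87 genes and of 13944 protein-coding genes. The bZIP palindromes were rare in this window. CRE (TGACGTCA) was in 0 promoters, which allows a share of up to 3.45%, beside 0.423% of all promoters, and the palindrome TTACGTAA was also in 0, beside 0.480%. In the windows of 100 bp on each side of the summits CRE was in 0 of 12 windows, which allows up to 25.0%, beside 1.57% of the windows of 1469 promoter peaks. The AP-1 site (TGAGTCA or TGACTCA) was in 6 promoters (6.90%, 3.20 to 14.2%), beside 2.47% of all. None of these 6, which were ND-51L2, ND-B14.5A, ND-B14.5AL, ND-B16.6, ND-MLRQ and UQCR-14L, was bound. Over all genes 56 of the 345 with the site were bound, so that a count of 0 among 6 is no result about them.

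The M1BP core GGTCACACT was in 16 promoters (18.4%, 11.6 to 27.8%), beside 5.87% of all promoters. It was at 5 of the 12 bound genes and 11 of the 75 others, and at 8.81% of all bound genes. Of the 16 genes 7 were of complex I, 5 of complex IV, 2 of complex III and 2 of complex V, and 15 were primary copies. Its first base lay at a median of -14.5 bp from the start site, and in 12 of the 16 it was downstream or no more than 100 bp upstream. Among the compared families it was in 9.78% of cytoplasmic and 11.0% of mitochondrial ribosomal protein promoters. In the summit windows it was in those of ATPsynC and ND-SGDH.

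Other promoter motifs were at or near the frequency of the genome. The DNA replication-related element (DRE, TATCGATA) was in 8 promoters (9.20%, beside 8.94%) and in the summit windows of ATPsynE and ND-SGDH. None of the 8 genes was bound. Over all genes 281 of the 1246 with DRE were bound, so that a count of 0 among 8 is no result about them. The E-box CACGTG was in 4 promoters (4.60%, beside 4.26%). GCGCATGCG, the core of sites for erect wing, the fly relative of the vertebrate respiratory factor NRF1, was in 0 promoters, beside 0.531%. The promoter window also held no NRG element, beside 0.868% of all promoters.

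A wider window, chosen after these values were seen, showed where the NRG elements are. From 250 bp before to 1000 bp after the canonical start site, 28 of 87 genes held one (32.2%, 23.3 to 42.6%), beside 3.11% of all protein-coding genes. In the same window the palindrome TTACGTAA, which can lie inside an NRG element, was in 12 of 87 genes (13.8%), beside 1.65% of all genes. The NRG element was described from genes of this kind, so that its frequency among them is no independent result. It was in 27 of 63 primary copies and in 1 of 24 duplicates, COX7AL. By complex it was in 9 of 40 genes of complex I, 2 of 7 of complex II, 2 of 9 of complex III, 6 of 16 of complex IV and 9 of 15 of complex V. Its share was 0 of 92 among cytoplasmic ribosomal protein genes, which allows up to 3.26%, then 5.48% among mitochondrial ribosomal protein genes and 3.03% among vacuolar ATPase genes.

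**Figure D4:**
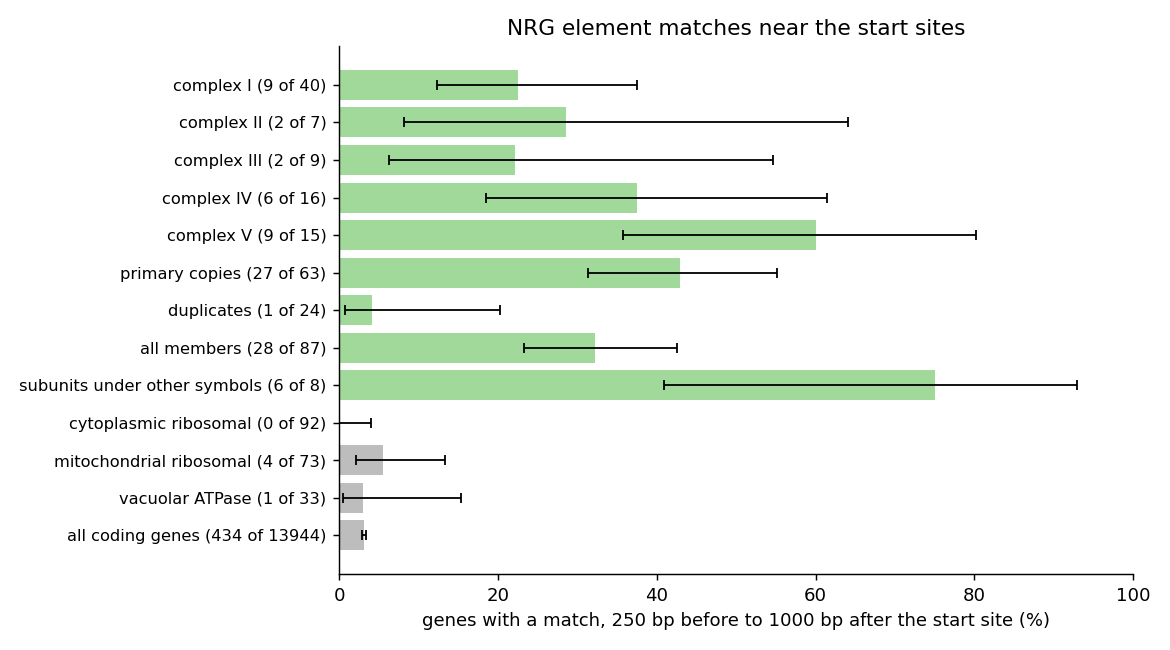
Percent of genes with an NRG element from 250 bp before to 1000 bp after the canonical start site (horizontal), by gene group (vertical), with 95% Wilson intervals; green bars are oxidative phosphorylation genes and grey bars other groups. The primary copies stand at 42.9% and complex V at 60.0%, beside 3.11% of all protein-coding genes.

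These genes held 29 elements in all, with a first base from 152 to 967 bp after the start site and a median of 268 bp. Of the elements 21 were in an intron, 7 in an untranslated exon and 1, that of COX5A, beyond the end of the gene. As in the sequences shown above, the middle of the palindrome varied, and 5 of 29 had the full core TTACGTAA. All the elements were thus on the transcribed side of the canonical start site.

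Atf3 intervals covered these elements about as rarely as they covered NRG matches in general. Of the 29 elements 0 were inside an interval of the IDR list, which allows a share of up to 10.3%, beside 0.884% of the 3732 matches on the 6 arms. Inside a pooled interval were 2 of them, those of COX5B and UQCR-Q (6.90%, beside 5.33%). In replicates 1, 2 and 3 the shares were 6.90%, 6.90% and 10.3%, beside 6.24%, 6.89% and 5.98% of all matches. Among the bound genes only the element of ATPsynE was inside a replicate's interval, in replicate 3. These shares lie near the background and are no result about the elements of these genes. At bound genes the distance from element to summit ran from 285 bp at ATPsynE to 823 bp at the second site of ATPsynC.

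Binding was also counted in genes with and without the element. Of the 28 genes with an element 8 were bound (28.6%, 15.3 to 47.1%), and of the 59 without one 4 were (6.78%, 2.67 to 16.2%). Among primary copies alone the counts were 8 of 27 (29.6%, 15.9 to 48.5%) and 4 of 36 (11.1%, 4.41 to 25.3%), whose intervals overlap. Over all protein-coding genes with an element 15.9% were bound, beside 14.2% of all genes. The difference was not tested.

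**Figure D5:**
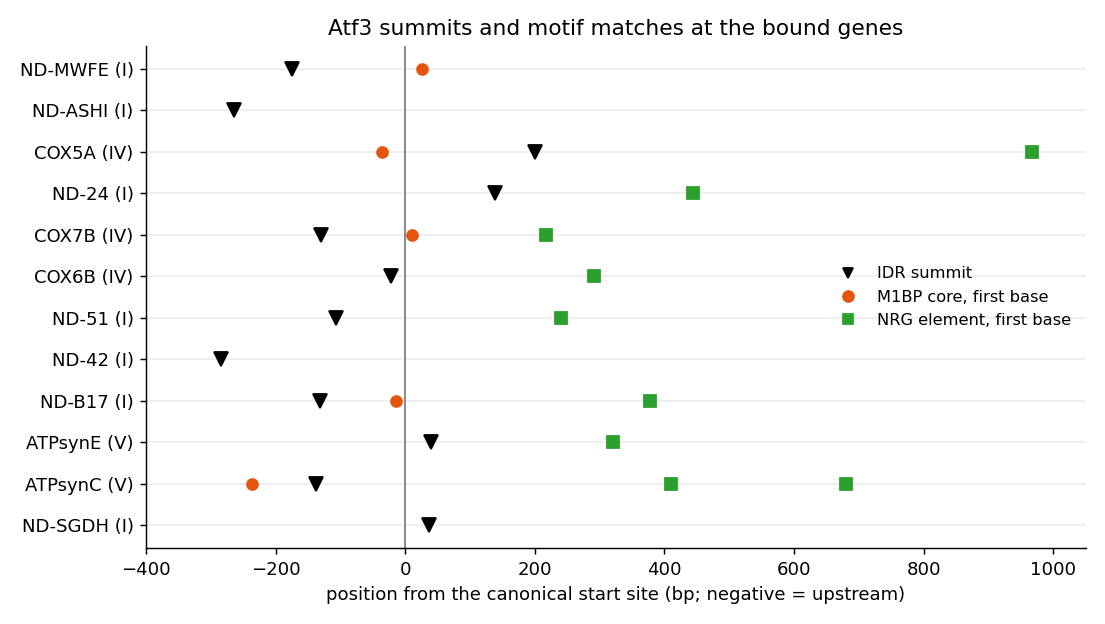
Position of the IDR summit (triangle), of the M1BP core (circle) and of the NRG element (square) from the canonical start site in bp (horizontal; negative is upstream) at the 12 bound genes (vertical). The NRG elements lie 217 to 967 bp downstream and no summit falls on one; COX5A and ND-24 have summits downstream of the canonical start site but upstream of a second start site of the same gene.

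Other genes of the pathway were taken from lists of 47 genes in 5 groups. Among 8 subunits and electron carriers under other symbols 4 were bound (interval 21.5 to 78.5%), beside 14.2% of all genes, which is also the share to set beside the lists that follow. These were Cyt-c-d, a cytochrome c gene, with a signal of 284, blw, the alpha subunit of complex V, with 117, levy of complex IV with 111 and cype of complex IV with 85.0. The NRG element was in 6 of these 8, beside 3.11% of all genes. Adding the 8 genes to the 87 would bring the count of bound genes from 12 to 16.

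Of 9 assembly factor genes 2 were bound, and CIA30, which helps to build complex I, had a signal of 442, above that of any of the 87. Cox17, a copper carrier for complex IV, had 119. Of 15 genes of the TCA cycle 3 were bound, namely mAcon1 with 196, Fum1 with 188 and Idh3g with 142, and the Fum1 peak is the one shared with ND-ASHI. Of 11 genes for the upkeep and transcription of mitochondrial DNA 2 were bound, mtSSB with 184 and PolG2 with 105. Of 4 regulators of mitochondrial genes, ERR, a nuclear receptor, was bound with 142. Over the 5 lists this was 12 of 47 genes (25.5%, 15.3 to 39.5%), beside 14.2% of all genes.

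Families of nuclear genes for other large complexes were bound in other shares. The cytoplasmic ribosomal protein genes had 59 of 92 members bound (64.1%, 53.9 to 73.2%), with RpS27 highest at 550. The mitochondrial ribosomal protein genes had 19 of 73 (26.0%, 17.3 to 37.1%), with mRpS10 at 1164. The vacuolar ATPase genes had 8 of 33 (24.2%, 12.8 to 41.0%), with Vha55 at 357. The interval of the cytoplasmic ribosomal genes lies above that of the oxidative phosphorylation genes, while the other intervals overlap it, and no test of these differences was made.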

How the data were processed

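The data are peak lists from 3 biological replicates of anti-GFP ChIP-seq on embryos, with fragments of 200 to 800 bp per the labels. The authors deposited 5 lists on dm6: a relaxed list for each replicate, a relaxed list from the pooled replicates and an IDR list. Per the file headers, each relaxed list was made from an alignment and a control file. The value used is the deposited signal of each peak, which is compared within a list only. The sources used here name no aligner, peak caller, IDR threshold or read depth.

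Summits were assigned to every gene with a start site within 500 bp, using 23722 start sites of 17896 genes in Ensembl release 115. Python 3.11.15 with numpy 2.4.6, pandas 2.3.3 and scipy 1.17.1 was used, with matplotlib 3.10.9 for the figures. Assignment, overlap and motif search were tested on simulated data. Sequences were read from the RefSeq release 6 genome. Shares have 95% Wilson intervals, and a share of 0 has the limit set by 3 counts. No test between groups was possible with 1 group. Calls were taken as shared between lists when they overlapped by 50.0% of the shorter. The genes, lists and motifs were chosen with earlier results of these data known.

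Named in the text are all bound genes, the 3 highest unbound genes with a pooled call in each complex, up to 2 with no call, all core subunits of complex I, neighbours at shared peaks and up to 3 genes of each compared list. The genes cype, SdhBL, SdhCL, COX7AL, COX7AL2, ATPsynbeta and the genes listed for a motif were named after their values were seen. Of 52 pathway symbols 47 were matched. The dm3 lists were not used.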

Additional observations from a re-analysis of the deposited data

How the results depend on the processing

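Of 89 alternatives run for the counts, distances and signals 63 stayed within the tolerance. The tolerance was 1.5 times for a count and 1 SD between replicates for the replicate share and the distance. For the signal it was the 95% interval of the median. Some of the 63 were fixed in advance. Complexes II and III start from 0 bound genes, and settings that only remove peaks or start sites keep them at 0. Of 18 alternatives run for the motif shares 15 stayed inside the interval. The 12 bound genes fell to 7 with the stronger part of the IDR list by signal (0.5 of its peaks), which kept none of complex V's 2 and 4 of complex I's 7. They fell to 6 with peaks shared by the top calls of all 3 replicates (4 of complex I, 0 of complex V), and these 6 were COX5A, COX7B, ND-24, ND-51, ND-ASHI and ND-MWFE. They rose to 22 with a pooled list of double length (12 of complex I, 2 of complex II, 4 of complex V). Under these settings the share of all protein-coding genes moved likewise, from 14.2% to 7.97%, 8.05% and 23.3%. With the nearest start site only, 4 genes of complex I were bound, the mean replicate share was 8.81% and the median distance 67.0 bp. Leaving out 1 replicate, with peaks shared by both others, gave 6 to 8 bound genes, 4 to 5 in complex I, 0 in complex V, 19 to 26 genes with a pooled call and a median distance of 118 to 130 bp with a median signal of 161 to 174, while the share of all protein-coding genes fell from 14.2% to between 8.94 and 10.2% (IDR) and from 46.8% to between 24.3 and 27.9% (pooled). No duplicate was bound under any of these settings. Only a window of 1000 bp and the pooled list of double length could have added a gene. The other settings choose among the 12 bound genes. The mean replicate share was 8.05% with fewer top peaks, 21.5% with more and 50.2% with whole lists. Shorter or longer lists change the counts by construction, and the cause of the other shifts was not tested. The TTACGTAA share rose from 0 to 4.60% and 13.8% in wider windows, beside 0.997% and 1.65% of all protein-coding genes. The NRG share rose to 32.2%, beside 3.11%. No paired analysis was possible because there is 1 group. Without read counts the precision of a single peak cannot be given.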
